A study of Mus musculus with 42 samples.

Results

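A set of 7 genes tied to the hepatic carbohydrate response were followed: Rgs16, Pklr, Mlxipl, Txnip, Khk, Tpi1 and Ldha. They were selected by name, as the gene of the carbohydrate-response factor ChREBP and genes counted among its targets, from 17989 genes with a named probe set. Each of the 7 had exactly 1 probe set that carried a single gene symbol, so the rule of taking the brightest probe set per gene chose nothing here. The genes and the pathway lists were chosen with earlier results of these arrays known, so no p-value below is independent of that choice. The changes of Rgs16 at all HFD times and of Pklr at 7 days were themselves among those results and are given as descriptions with no test. The samples were livers of wild-type male C3HeB/FeJ mice, an inbred strain, housed singly and fed at random. Controls (18 arrays) had received a low-fat diet for at most 21 days and were 15 to 17 weeks old. High-fat diet (HFD) was given for 7 days (8 arrays, 15 weeks old), 14 days (8 arrays, 16 weeks) or 21 days (8 arrays, 17 weeks). Age therefore rose with the time on HFD, while controls of all ages formed 1 group. The labels do not say which animal each array came from, so a p-value sets a difference against array-to-array spread that may be technical in part.

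ChREBP, encoded by Mlxipl, is a transcription factor that senses sugar phosphates and, paired with Mlx, binds carbohydrate response elements in genes of glycolysis, fructose use and fat synthesis. Its activity is controlled largely after translation, so its transcript level need not follow its activity. Rgs16 encodes a GTPase activator that shortens signalling by Gi- and Gq-coupled receptors, and its liver transcript is known to respond to feeding state. Txnip encodes an arrestin-like protein that binds thioredoxin and restrains glucose uptake. Pklr (liver pyruvate kinase), Tpi1 (triosephosphate isomerase) and Ldha (lactate dehydrogenase A) act in glycolysis and at its end, and Khk (ketohexokinase) carries out the first step of fructose use.

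Values are on the log2 scale, so a difference of 1 is a doubling of signal, and levels are not compared between genes. Arrays have no read depth, and their number limits the precision. All 7 genes lay above the background level of 2.86, the 95th percentile of olfactory receptor gene means, as did 12148 genes in all. Hepatocyte markers (7 of 8 measured, Alb and Hnf4a among them) averaged between 11.45 and 12.16 on every array. Their median change was 0.01, 0.02 and -0.13 at 7, 14 and 21 days, with 0 of 7 called by limma at any time and 0, 0 and 3 at an unadjusted p under 0.05. Pancreatic acinar markers (13 of 16 measured) were uneven within groups. Their mean on an array lay between 3.37 and 8.23 in controls, 3.50 and 9.17 after 7 days of HFD, 3.50 and 8.98 after 14 days, and 3.35 and 6.16 after 21 days. Their median change against controls was 0.77, 0.64 and -0.50 at the 3 times, with 0 of 13 called by limma at any of them and 1, 0 and 0 at an unadjusted p under 0.05. Kupffer cell and macrophage markers ran from 4.97 to 5.68 in controls and from 5.51 to 5.95 at 7 days. Of these, 3 of 10 were called higher at 7 days (Vsig4 by 0.64, C1qc by 0.46, Cd68 by 0.44), against 1.16% of all genes. At 14 and 21 days 0 of 10 were called. At an unadjusted p under 0.05 limma listed 7, 3 and 0 of them, against 9.28%, 6% and 6.66% of all genes. The part of these markers in the results was not tested. In such bulk tissue, fewer cells of a type and less RNA per cell cannot be told apart. The titles of control and 21-day arrays, and of no others, carry the word reanalysis, so that for 7 and 14 days this difference cannot be told apart from the diet.

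Rgs16 was the member with the widest distance from controls. In controls its values ran from 3.70 to 7.60 with a median of 4.81. On HFD the range was 7.04 to 8.74 after 7 days (median 7.98), 6.05 to 9.19 after 14 days (median 7.97) and 6.15 to 8.46 after 21 days (median 7.55). The controls were thus spread over nearly 4 units, with most of them low and numbers 18, 4 and 13 high at 7.60, 7.35 and 6.87. All 24 HFD arrays lay above the control mean of 5.19 ± 1.17 (SD, n = 18). The highest control value was exceeded by 7 of 8 arrays at 7 days, 7 of 8 at 14 days and 4 of 8 at 21 days, and the groups overlapped at each time. Mean levels were 7.93 ± 0.47 at 7 days, 7.97 ± 0.92 at 14 days and 7.43 ± 0.75 at 21 days (SD, n = 8 each). They stood 2.74 (SE 0.38, 95% interval 1.97 to 3.51), 2.77 (2.005 to 3.54) and 2.24 (1.47 to 3.01) above controls, or 6.68-fold, 6.83-fold and 4.73-fold on the geometric scale. In order of level the groups ran 14 days, 7 days, 21 days and control. The 3 HFD times did not differ beyond their spread, as given below. The within-group spread of Rgs16 was among the widest on the arrays. Its pooled SD of 0.96 was larger than that of 99.7% of the 12148 genes above background, whose median SD was 0.24.

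**Figure D1:**
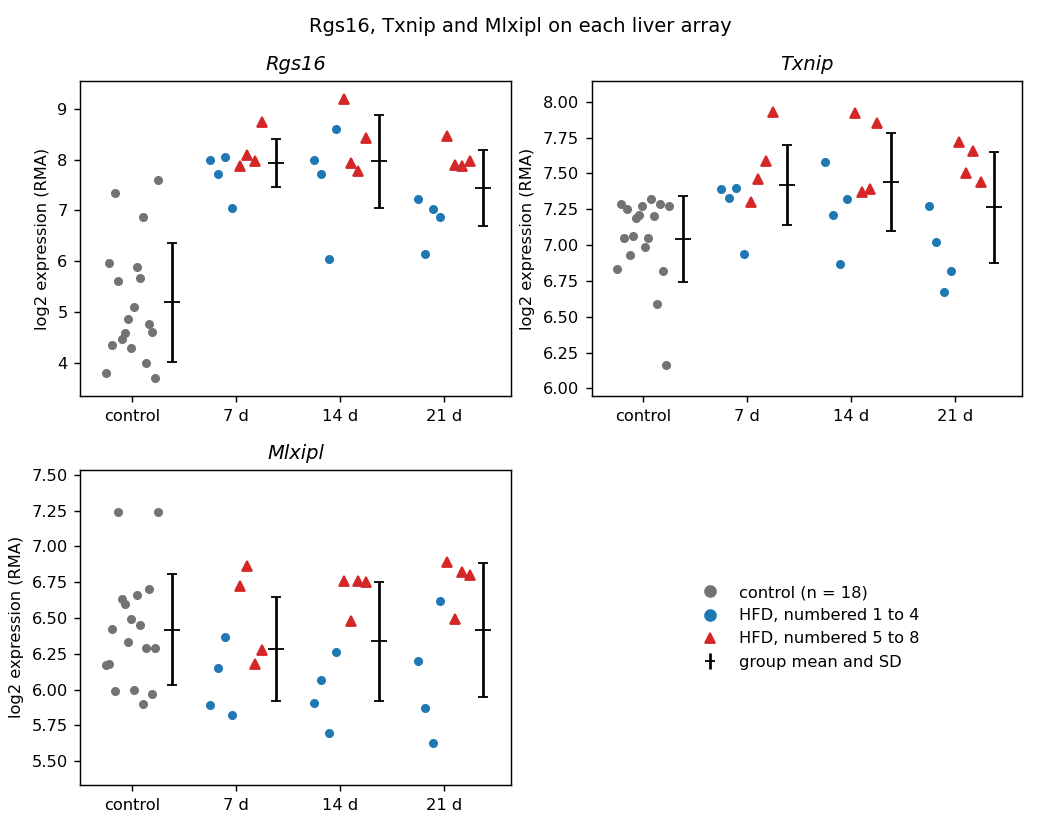
Log2 expression (RMA) of Rgs16, Txnip and Mlxipl on each array, by group. Points are single arrays (control n = 18, HFD n = 8 per time), with HFD arrays numbered 1 to 4 as circles and 5 to 8 as triangles, and the bar gives the group mean and SD. Rgs16 lies between 3.70 and 7.60 in controls and between 6.05 and 9.19 on HFD. The mean of the triangles is higher than that of the circles in each gene and time, with overlap in part.

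The transcript of ChREBP itself showed no difference from controls that passed the test. Mlxipl ran from 5.90 to 7.24 in controls (median 6.37). On HFD the range was 5.82 to 6.86 after 7 days (median 6.23), 5.70 to 6.76 after 14 days (median 6.37) and 5.63 to 6.89 after 21 days (median 6.55). All 4 groups covered much the same range, and no HFD array exceeded the highest control. The differences were -0.13 at 7 days (95% interval -0.46 to 0.20, limma adjusted p = 0.846), -0.08 at 14 days (-0.41 to 0.25, adjusted p = 0.989) and -0.004 at 21 days (-0.34 to 0.33, adjusted p = 0.999). These intervals leave room for differences of up to about 0.46 in size. Its dimerization partner Mlx differed by 0.04 at 7 days (adjusted p = 0.9), and also lacked a call at 14 and 21 days.

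Txnip, often used as a readout of glucose entering the ChREBP pathway, stood slightly above controls without a call. It ran from 6.16 to 7.32 in controls (median 7.13). The HFD ranges were 6.94 to 7.93 after 7 days (median 7.40), 6.87 to 7.92 after 14 days (median 7.38) and 6.67 to 7.72 after 21 days (median 7.35). The highest control was exceeded by 6 of 8 HFD arrays at 7 days, 6 of 8 at 14 days and 4 of 8 at 21 days, while the remaining HFD arrays lay among the controls. The differences were 0.37 (95% interval 0.11 to 0.64, limma adjusted p = 0.214), 0.39 (0.13 to 0.66, adjusted p = 0.337) and 0.22 (-0.05 to 0.48, adjusted p = 0.861). Arrdc4, an alpha-arrestin related to Txnip, rose at 7 days by 0.46 (SE 0.11, adjusted p = 0.0187), a call lost without 7-day array 1, 5 or 7 (adjusted p up to 0.0816). At 14 and 21 days Arrdc4 differed by 0.26 (adjusted p = 0.73) and 0.20 (adjusted p = 0.852).

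Pklr, whose product makes pyruvate in the last step of glycolysis, was highest at 7 days. Its values ran from 6.82 to 8.89 in controls (median 8.17). On HFD the range was 8.14 to 9.28 after 7 days (median 8.82), 8.09 to 8.94 after 14 days (median 8.64) and 7.87 to 8.97 after 21 days (median 8.52). The 7-day arrays all lay above the control mean of 8.06 ± 0.54 (SD, n = 18), and 4 of 8 exceeded the highest control. The 7-day mean of 8.80 ± 0.38 stood 0.74 above controls (SE 0.18, 95% interval 0.38 to 1.11), or 1.68-fold. At 14 days the difference was 0.49 (0.13 to 0.85, limma adjusted p = 0.47), and at 21 days 0.43 (0.06 to 0.79, adjusted p = 0.592).

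Ldha, which interconverts pyruvate and lactate, rose at every time and was the tightest of the 7 transcripts. It ran from 10.35 to 11.07 in controls (median 10.68). The HFD ranges were 11.10 to 11.37 after 7 days (median 11.20), 11.02 to 11.18 after 14 days (median 11.09) and 10.90 to 11.38 after 21 days (median 11.01). At 7 days the groups did not overlap. At 14 and 21 days a single control array, the highest at 11.07, reached into the HFD range. The rises were 0.54 (SE 0.06, 95% interval 0.41 to 0.66, limma adjusted p = 4.05e-08), 0.41 (0.29 to 0.54, adjusted p = 2.93e-05) and 0.39 (0.26 to 0.51, adjusted p = 0.000106), or 1.45-fold, 1.33-fold and 1.31-fold. All 24 HFD arrays lay above the control mean of 10.68 ± 0.15 (SD, n = 18). Its pooled within-group SD was 0.14, and only 1% of genes above background varied less.

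Khk rose at 7 days. It ran from 10.11 to 10.84 in controls (median 10.45). On HFD the range was 10.61 to 11.11 after 7 days (median 10.85), 10.56 to 10.85 after 14 days (median 10.61) and 10.41 to 11.12 after 21 days (median 10.70). All 8 arrays of 7 days lay above the control mean, 4 of them above every control. The 7-day rise was 0.41 (SE 0.08, 95% interval 0.24 to 0.57, limma adjusted p = 0.00139), or 1.32-fold. At 14 days the difference was 0.21 (0.05 to 0.37, adjusted p = 0.504) and at 21 days 0.27 (0.11 to 0.43, adjusted p = 0.146).

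Tpi1, which interconverts the 3-carbon sugars of glycolysis, was the only one of the 7 called lower, and only at 21 days. It ran from 9.48 to 10.12 in controls (median 9.81). The HFD ranges were 9.58 to 10.05 after 7 days (median 9.79), 9.50 to 9.82 after 14 days (median 9.66) and 9.26 to 9.75 after 21 days (median 9.53). All 8 arrays of 21 days lay below the control mean of 9.80 ± 0.15 (SD, n = 18), and 4 lay below every control. The 21-day difference was -0.29 (SE 0.07, 95% interval -0.42 to -0.15, limma adjusted p = 0.016), or 1.22-fold lower. This call did not withstand the loss of 1 array: without 21-day array 3 or 5 the adjusted p reached 0.0736. At 7 and 14 days the differences were -0.01 (adjusted p = 0.979) and -0.14 (adjusted p = 0.764). Processed copies of Ldha and Tpi1 exist in mammalian genomes, and signal from near-identical sequences cannot be told apart from that of the genes.

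**Figure D2:**
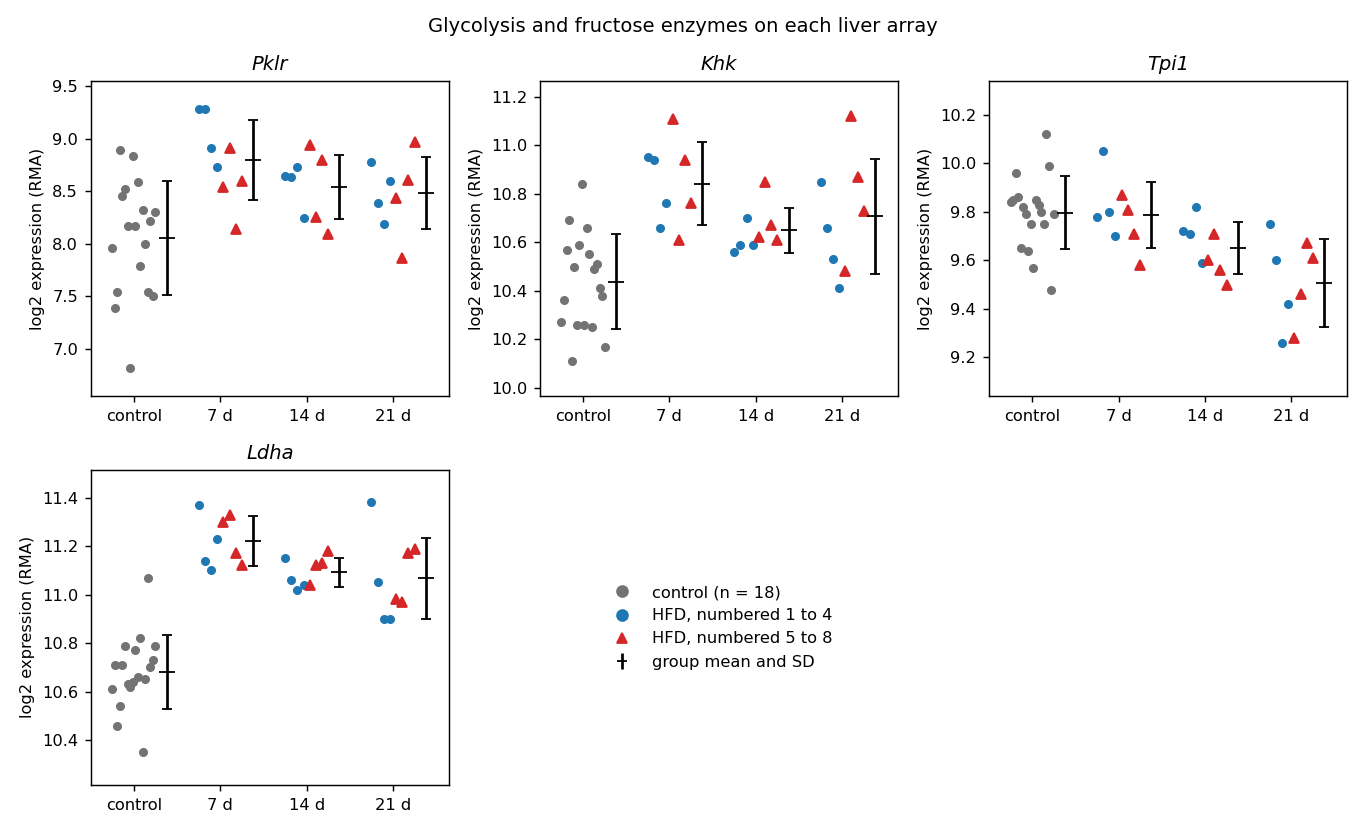
Log2 expression (RMA) of the enzyme genes Pklr, Khk, Tpi1 and Ldha on each array, with the same symbols as for Rgs16 and the bar at the group mean and SD. The 8 Ldha arrays at 7 days (11.10 to 11.37) all lie above the highest control (11.07), and the Tpi1 means step down to 9.51 at 21 days.

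Leaving aside Rgs16 at each time and Pklr at 7 days, 2 of 5 members were called higher at 7 days (Khk, Ldha), where 1.16% of all genes were called higher, and 0 lower, where 0.239% were. At 14 days 1 of 6 was called higher (Ldha), against 0.506% of all genes, and 0 lower, against 0.161%. At 21 days 1 of 6 was called higher (Ldha), against 0.445%, and 1 lower (Tpi1), against 0.256%. At an unadjusted p under 0.05 limma listed 3 of 5, 5 of 6 and 4 of 6 of them, against 9.28%, 6% and 6.66% of all genes. A complete separation above the controls was seen for Ldha at 7 days (0.228% of genes), for none of the 7 at 14 days (0.0778%) and for none at 21 days (0.05%). Nothing is read from these counts, because the members were chosen with results of the same contrasts known. The 3 comparisons share the same 18 controls. On leaving out 1 array, the 7-day difference of Pklr ran from 0.67 to 0.84.

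**Figure D3:**
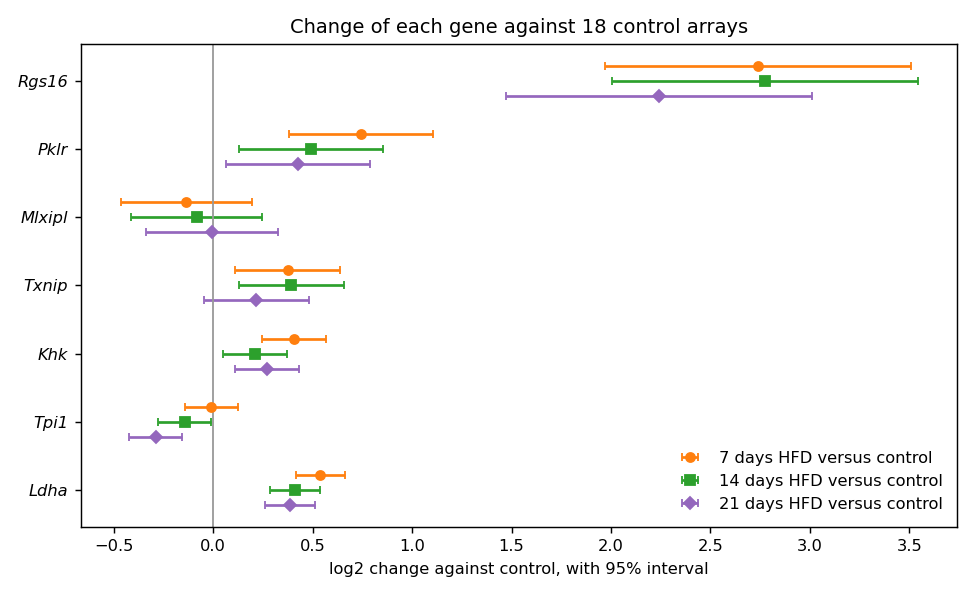
Change in log2 expression of each gene against the 18 controls at 7, 14 and 21 days of HFD, with 95% intervals from limma. Rgs16 stands 2.24 to 2.77 above controls, Mlxipl straddles 0 at every time, and Tpi1 lies below 0 at 21 days.

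Among the HFD times themselves, 0 of 7 genes were called by the limma F test, and 1 (Tpi1, F = 6.44, p = 0.00354) had an unadjusted p under 0.05. Over all genes 0.00556% were called. Among the HFD arrays only those of 21 days carry the word reanalysis in their titles, and age rose with time on HFD. Differences of 21 days from 7 or 14 days cannot be told apart from these. Rgs16 at 21 days differed from 7 days by -0.50 (95% interval -1.40 to 0.41, adjusted p = 0.809), and at 14 days from 7 days by 0.03 (-0.87 to 0.94, adjusted p = 1). Pklr at 21 days differed from 7 days by -0.32 (-0.75 to 0.11, adjusted p = 0.755). Ldha differed between the same times by -0.15 (-0.30 to -0.01, adjusted p = 0.684). For Tpi1 the difference was -0.28 (-0.44 to -0.12, adjusted p = 0.574), with 8 of 8 arrays of 21 days below the 7-day mean. Khk differed between 14 and 7 days by -0.19 (-0.38 to -0.003, unadjusted p = 0.0462, adjusted p = 1) and between 21 and 7 days by -0.13 (-0.32 to 0.06, adjusted p = 0.772).

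Within the HFD groups the arrays numbered 5 to 8 stood apart from those numbered 1 to 4, and the labels do not say what the numbering stands for. This split was taken up because earlier results of these arrays had shown it, so its p-values do not test a grouping set beforehand. In a limma fit over the 24 HFD arrays with time as a term, 22.7% of all genes were called between these number ranges, and 3 of the 7 genes were. Rgs16 was higher on arrays 5 to 8 by 0.81 (SE 0.22, 95% interval 0.36 to 1.26, adjusted p = 0.00834), with means of 8.18 and 7.37. The difference was 0.47 at 7 days, 0.74 at 14 days and 1.23 at 21 days, and at 21 days each of the 4 arrays exceeded all of numbers 1 to 4. Mlxipl was higher by 0.61 (SE 0.10, 95% interval 0.40 to 0.82, adjusted p = 0.000139) and Txnip by 0.44 (SE 0.10, 95% interval 0.24 to 0.64, adjusted p = 0.00158). Pklr (-0.19, adjusted p = 0.306), Khk (0.10, adjusted p = 0.356), Tpi1 (-0.07, adjusted p = 0.463) and Ldha (0.03, adjusted p = 0.741) lacked a call. The nuclear long noncoding RNA Malat1, an abundant transcript retained in nuclei, was higher on arrays 5 to 8 by 2.48 (SE 0.15, adjusted p = 4.74e-11), and every array 5 to 8 exceeded every array 1 to 4 of its time. Its part in the differences of Rgs16, Mlxipl and Txnip was not tested beyond a fit with Malat1 and the acinar mean as covariates, in which the number ranges differed by -0.29 for Rgs16 (adjusted p = 0.931), by -0.39 for Mlxipl (adjusted p = 0.637) and by 0.19 for Txnip (adjusted p = 0.886). Since Malat1 itself separates the ranges, that fit can hardly tell them apart.

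Set against the controls by number range, Rgs16 stood higher in both. On arrays 1 to 4 it was 2.51, 2.40 and 1.63 above controls at 7, 14 and 21 days, and on arrays 5 to 8 it was 2.97, 3.14 and 2.86 above. Mlxipl took opposite signs without a call: -0.36, -0.43 and -0.34 on arrays 1 to 4, and 0.09, 0.27 and 0.33 on arrays 5 to 8. Txnip differed from controls by 0.22, 0.20 and -0.10 on arrays 1 to 4 and by 0.53, 0.59 and 0.54 on arrays 5 to 8, with limma adjusted p = 0.109, 0.0845 and 0.0504 for the latter. Ldha rose to a like extent in both ranges, by 0.53, 0.39 and 0.37 on arrays 1 to 4 and by 0.55, 0.44 and 0.40 on arrays 5 to 8. Khk at 7 days differed by 0.39 on arrays 1 to 4 (adjusted p = 0.0406) and by 0.42 on arrays 5 to 8 (adjusted p = 0.0717). Pklr at 7 days stood 0.99 above controls on arrays 1 to 4 and 0.49 on arrays 5 to 8. Tpi1 at 21 days was -0.29 in each range, with adjusted p = 0.0554 and 0.0769. Control means for numbers 1 to 9 and 10 to 18 were 5.03 and 5.35 for Rgs16, 8.06 and 8.05 for Pklr, and 10.63 and 10.73 for Ldha.

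The acinar markers moved with some of these values. Across the 42 arrays, after group means were removed, Pearson r with the acinar mean was -0.32 for Rgs16 and -0.37 for Tpi1. For the other 5 genes it was between -0.23 and -0.10. All values of an array come from the same tissue sample and scan, and no test was made. When the arrays with an acinar mean above 5 were left out (an alternative added on seeing the data, leaving 11 controls and 4, 3 and 6 HFD arrays), Rgs16 stood 2.16, 2.06 and 1.68 above controls. Ldha differed by 0.53 (limma adjusted p = 0.00653), 0.42 (adjusted p = 0.251) and 0.42 (adjusted p = 0.0197). Khk at 7 days then differed by 0.36 (adjusted p = 0.372). Pklr then stood 0.81 above controls at 7 days.

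Deviations from the group mean, which do not use the contrast with controls, showed which transcripts varied together from array to array. They are descriptions over 42 arrays. Differences between arrays in RNA quality or tissue sampling act on all transcripts of an array, and their part was not tested. Ranked over 12147 genes above background, the transcripts most like Rgs16 were Depp1, a gene induced by FoxO factors (r = 0.76), Lpin2, a phosphatidate phosphatase (r = 0.73), Txnip (r = 0.66), Tmem140 (r = 0.64), Zmynd8 (r = 0.63, 0.48 without the 2 farthest arrays) and Gys2, the liver glycogen synthase (r = 0.63). Over the 18 controls alone Depp1 and Lpin2 each gave r = 0.76 and Txnip 0.56. Over the HFD arrays with the number ranges removed the values were 0.66, 0.64 and 0.71. The lowest correlations with Rgs16 were those of Hdhd3 (r = -0.69), Tsc22d1 (r = -0.68) and the fatty acid elongase Elovl3 (r = -0.60).

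Correlations of Rgs16 with the enzyme genes were low. Its r was 0.20 with Pklr (0.33 in controls, -0.07 on HFD, 0.06 without the 2 farthest arrays), -0.09 with Khk, -0.08 with Tpi1 and -0.07 with Ldha. With Mlxipl it was 0.36 (0.14 in controls, 0.65 on HFD, and 0.35 on HFD with the number ranges removed). Mlxipl and Txnip gave 0.44 (0.16 in controls, 0.63 on HFD, 0.17 on HFD with the number ranges removed). Pklr instead varied closely with Tkfc, the triokinase of fructose use (r = 0.94, 0.97 in controls), and with Fads2, a fatty acid desaturase (r = 0.90). Mlxipl varied with Tmem25 (r = 0.84) and Taz (r = 0.82), and Txnip with the deubiquitinase gene Usp47 (r = 0.81) and the tight junction gene Ocln (r = 0.80). Khk varied with Pgk1, a glycolytic kinase (r = 0.79), and Tfpi2 (r = 0.73). Tpi1 varied with Tst (r = 0.80) and Dynlrb1 (r = 0.72), and Ldha with Hagh (r = 0.66) and Tmed7 (r = 0.65). Mlxipl also correlated with Malat1 within groups over the 42 arrays (r = 0.76), as did Txnip (r = 0.48), whereas Rgs16 gave 0.11. These values were not split into control and HFD arrays. On HFD both Rgs16 and Malat1 were higher on arrays 5 to 8, by 0.81 and 2.48. The value of 0.11 therefore does not show that Rgs16 varied apart from Malat1 on HFD.

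**Figure D4:**
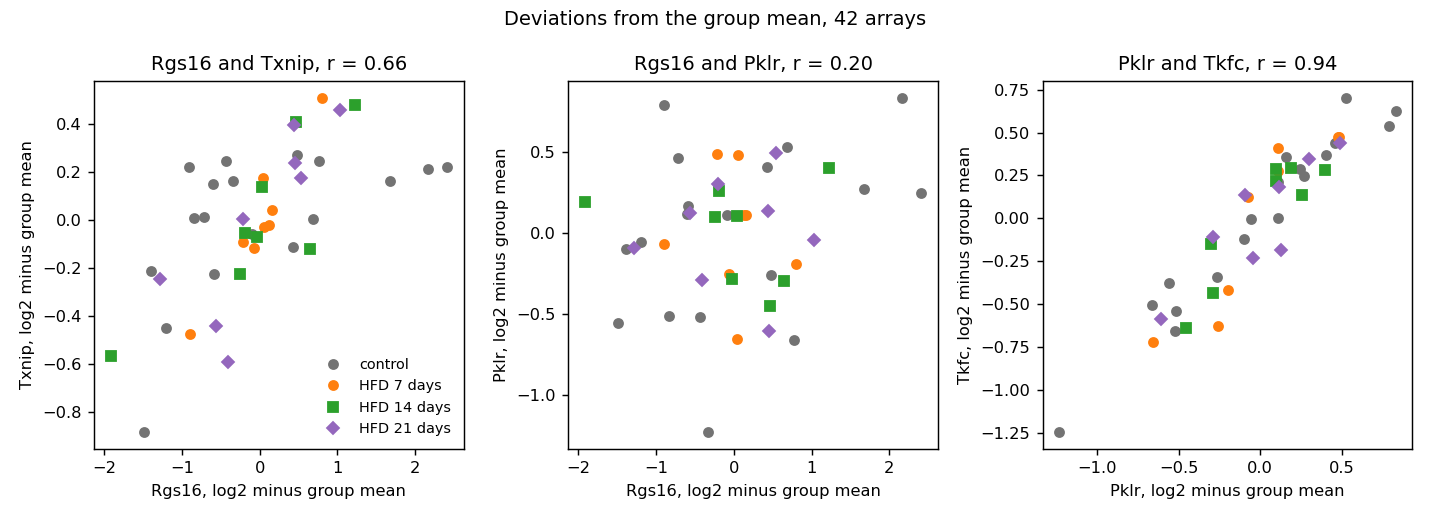
Deviation of each array from its group mean (log2) for Rgs16 against Txnip, Rgs16 against Pklr and Pklr against Tkfc; points are the 42 arrays, marked by group. The points of Rgs16 and Txnip lie along a rising line (r = 0.66), those of Rgs16 and Pklr are scattered (r = 0.20), and those of Pklr and Tkfc are tightly aligned (r = 0.94).

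**Figure D5:**
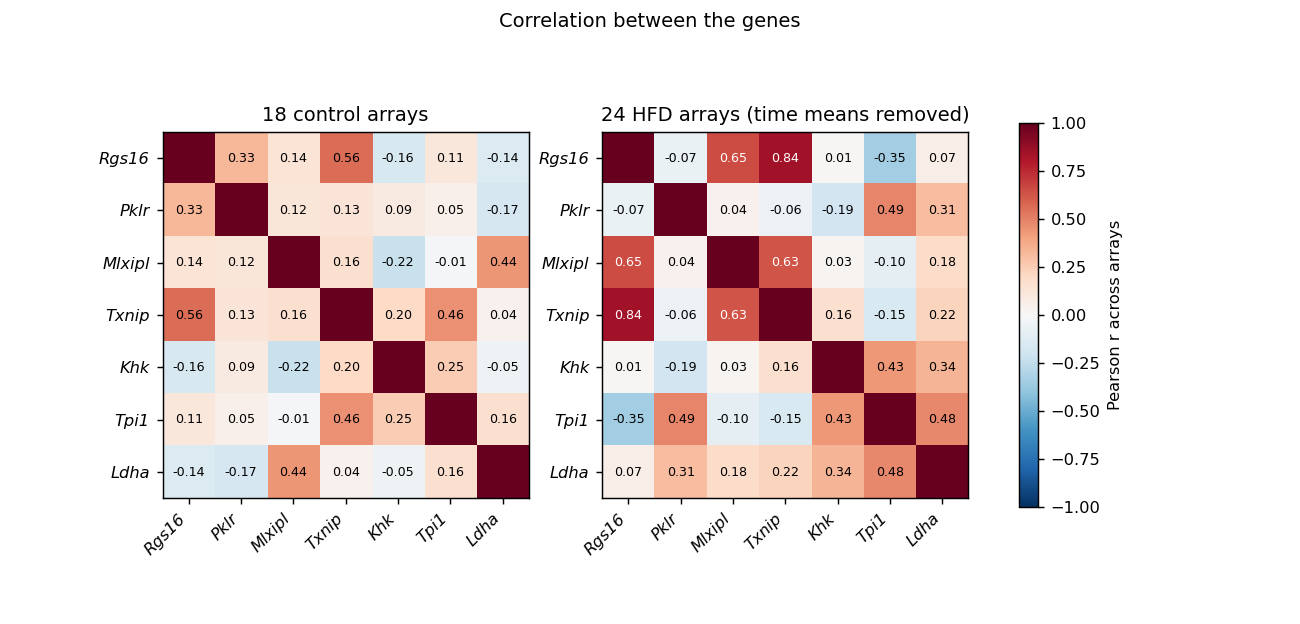
Pearson r between the 7 genes over the 18 control arrays (left) and over the 24 HFD arrays with the time means removed (right); the colour scale runs from -1 to 1. Rgs16 and Txnip reach 0.56 in controls and 0.84 on HFD, and Mlxipl gives 0.65 and 0.63 with them on HFD (0.35 and 0.17 once the number ranges are removed).

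Other partners and targets of ChREBP lay mostly above controls at 7 days. Of 20 measured genes in this list, 7 were called higher at 7 days, 1 at 14 days and 1 at 21 days. None was called lower. Fgf21, Tkfc and Arrdc4 were among the 7, and the fasting, fructose and alpha-arrestin lists below count them again. Over all genes 1.16%, 0.506% and 0.445% were called higher at these times, and 0.239%, 0.161% and 0.256% lower. At an unadjusted p under 0.05 limma listed 12, 11 and 5 of the 20, against 9.28%, 6% and 6.66% of all genes. The same shares over all genes stand beside the counts of the lists that follow. At 7 days Fgf21 in the ChREBP list, and Gys2 in the glycogen list below, were among the results known beforehand. Their 7-day changes are therefore descriptions with no p-value, though the counts of called genes include them. The median change was 0.46, 0.27 and 0.18, where the median over all genes was -0.01, -0.005 and 0.008. The largest called at 7 days were Fgf21, Pnpla3 and Acaca. Fgf21, a hepatic hormone, stood 1.12 above controls (SE 0.16), with 8 of 8 arrays above every control. Pnpla3, a lipid droplet acylhydrolase, rose by 0.998 (limma adjusted p = 0.00253). Acaca, the acetyl-CoA carboxylase of fat synthesis, rose by 0.98 (adjusted p = 0.00485). Fgf21 was also higher at 14 days (0.83, adjusted p = 0.00194) and 21 days (1.03, adjusted p = 5.74e-05). Fasn, fatty acid synthase, differed by 1.08 at 7 days (adjusted p = 0.0686), 0.93 at 14 days (adjusted p = 0.337) and 0.80 at 21 days (adjusted p = 0.49), with control arrays spread by an SD of 0.95; at 7 days it was called when any of 6 single arrays was left out. The count of 7 ranged from 3 to 9 when 1 array was left out, falling to 3 without 7-day array 1 and to 4 without 7-day array 2.

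The remaining glycolytic genes lacked calls. Of 14 measured, 0 were called in either direction at 7, 14 and 21 days, with 0, 0 and 1 at an unadjusted p under 0.05 in limma, and medians of 0.03, 0.01 and 0.004. In fructose and sorbitol metabolism 1 of 6 rose at 7 days: Tkfc, by 0.69 (SE 0.19, limma adjusted p = 0.0434), a call that was lost on leaving out any of 14 single arrays (adjusted p up to 0.151). None of the 6 was called at 14 or 21 days. At an unadjusted p under 0.05 limma listed 2, 2 and 0 of them at 7, 14 and 21 days. The glucose transporter Slc2a2 differed by 0.35 at 7 days (adjusted p = 0.306), Gckr, the glucokinase regulator, by 0.27 (adjusted p = 0.664), and Gpd1, which links glycolysis to glycerol phosphate, by 0.45 (adjusted p = 0.0751). Of 7 pentose phosphate genes 0 were called at any time (1, 0 and 0 at an unadjusted p under 0.05).

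In glycogen metabolism 2 of 12 genes rose at 7 days. These were the synthase gene Gys2, by 0.60 (SE 0.15, known beforehand), and the branching enzyme gene Gbe1, by 0.47 (limma adjusted p = 0.00314). The Gys2 call was lost without 7-day array 1, 2, 3, 6 or 8. At 14 and 21 days 0 of the 12 were called. At an unadjusted p under 0.05 limma listed 5, 4 and 2 of them at 7, 14 and 21 days. Of 12 gluconeogenic genes 0 were called at any time (3, 1 and 3 at an unadjusted p under 0.05), including G6pc (0.40 at 7 days, adjusted p = 0.674) and Pck1 (0.27 at 7 days). Of 11 genes known to be induced by fasting, 3 rose at 7 days: Fgf21, the phosphatidate phosphatase Lpin1 (0.88, adjusted p = 0.0305) and the lipase inhibitor Angptl4 (0.57, adjusted p = 0.000908). The Lpin1 call was lost without the same 7-day arrays as for Gys2 (adjusted p up to 0.103). At an unadjusted p under 0.05 limma listed 6, 4 and 3 of the 11 at 7, 14 and 21 days. Fgf21 and Angptl4 were also called higher at 14 and 21 days, Angptl4 by 0.45 (adjusted p = 0.0313) and 0.49 (adjusted p = 0.0138); at 14 days that call was lost without any of 5 arrays, and at 21 days without 21-day array 1. Of 14 clock genes 0 were called at any time, with 3 at each time at an unadjusted p under 0.05.

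The other RGS genes lay near their control levels, several of them at background. Of 19 other measured RGS genes, 1 was called higher at 7 days and 0 at 14 and 21 days. The call was Rgs4, by 0.33 (limma adjusted p = 0.0427), and was lost on leaving out any of 13 single arrays. At an unadjusted p under 0.05 limma listed 3, 1 and 1 of the 19. Rgs1 and Rgs18, for example, had control means of 2.33 and 2.22, below the background level of 2.86. Little can be read from the lack of change of such genes. Their changes at 7 days ran from -0.27 to 0.33 around a median of -0.04. Of 11 measured G protein alpha subunit genes, the substrates of RGS proteins, 0 were called at any time (1, 0 and 0 at an unadjusted p under 0.05). Gnai2 differed by 0.27 at 7 days (adjusted p = 0.575) and Gnaq by 0.02. In the alpha-arrestin and thioredoxin list 1 of 8 rose at 7 days, Arrdc4, and 0 at 14 and 21 days. At an unadjusted p under 0.05 limma listed 1, 1 and 0 of the 8. Txn1 and Txnrd1, thioredoxin and its reductase, differed by 0.15 and 0.09 at 7 days without a call.

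The sequence before the start sites was searched because ChREBP and Mlx bind paired half-sites. RefSeq promoter windows (GRCm38.p6, 300 bases: 250 before to 50 after each start) were found for 7 of 7 genes. The letters searched, on both strands, were half-sites CNCGNG set 5 bases apart. The E-box CACGTG, which is itself a case of that half-site, was searched too, as were the box CCAAT, the GC box CCGCCC and the TATA box TATAAA. The pair occurred in 2 of the 7 genes, Pklr and Txnip, and in 1.39% of all 32817 windows, or 1.59% of 26994 genes. Below stand 200 bases from before the start of these genes, with the pair in capitals: 170 to 154 bases before the downstream of 2 annotated Pklr starts (chr3:89136423-89136622, plus strand) and 85 to 69 bases before the Txnip start (chr3:96557757-96557956, plus strand). Rgs16 is shown beside them (chr1:153740153-153740352, plus strand) because its window holds no such pair; its capitals mark CCAAT, read as ATTGG, and 2 overlapping copies of CCGCCC.
Pklr: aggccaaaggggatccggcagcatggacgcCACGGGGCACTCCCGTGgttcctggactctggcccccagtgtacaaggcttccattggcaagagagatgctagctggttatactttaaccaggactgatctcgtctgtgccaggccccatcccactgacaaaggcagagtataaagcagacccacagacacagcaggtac
Txnip: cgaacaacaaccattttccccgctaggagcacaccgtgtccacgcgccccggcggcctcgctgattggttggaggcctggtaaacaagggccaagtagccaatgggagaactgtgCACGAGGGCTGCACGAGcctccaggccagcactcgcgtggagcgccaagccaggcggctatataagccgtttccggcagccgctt
Rgs16: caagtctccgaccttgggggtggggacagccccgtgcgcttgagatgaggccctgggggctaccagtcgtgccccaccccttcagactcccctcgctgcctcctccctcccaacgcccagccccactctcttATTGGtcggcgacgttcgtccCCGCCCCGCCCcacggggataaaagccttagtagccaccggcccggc
The single E-box CACGTG was present in 3 of 7, against 7.15% of all windows and 8.09% of genes, and the matches of Khk, Mlxipl and Ldha are shown with 12 bases on either side. The Khk match lies at chr5:30921488-30921493, that of Mlxipl at chr5:135089792-135089797, and those of Ldha at chr7:46845659-46845664 and chr7:46845756-46845761, 145 and 48 bases before the start.
Khk: agcgttccccgtCACGTGacaccgttaatc
Mlxipl: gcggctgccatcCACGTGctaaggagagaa
Ldha, first: ggtgtcgcagcaCACGTGgagccactcttg
Ldha, second: cggcccagcctaCACGTGggttcccgcacg
CCAAT was found in 4 of 7 genes (37.4% of all windows, 41.0% of genes), CCGCCC in 6 of 7 (35.6% and 38.2%) and TATAAA in 1 of 7, Pklr (13.6% and 15.7%). These matches describe letters in a window and not binding.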

How the data were processed

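Liver RNA was measured on 42 arrays. The labels' protocols name a miRNeasy kit with DNase treatment for RNA and biotin as the label. The deposited values are log2 intensities, which the authors made by RMA in Affymetrix Expression Console 1.1, per the submitters' processing notes; RMA shrinks changes of dim probe sets. No scaling was added, since array medians ran from 3.08 to 3.28. Of 32624 probe sets, 19559 carried 1 gene symbol in the platform annotation, with no genome build named, and 1469 carried several. A gene with more probe sets was represented by the brightest. RefSeq tables (GRCm38.p6) gave names and promoter sequences. All 42 arrays entered 1 fit of 4 groups (limma 3.58.1, R 4.3.3). A gene was called at a Benjamini-Hochberg adjusted p under 0.05 over 17989 genes, 2-sided; the fits were tested on simulated data. Members and gene lists were chosen with earlier results of these data known. Named were all members, up to 3 called genes per list and comparison with the largest change, a panel of 20 genes (14 measured, the others not analysed here), the 6 highest and 3 lowest correlates of Rgs16 and the 2 highest of each other member. Marker genes and Malat1 are named beside them. No array copied another: the smallest SD of a difference between 2 arrays was 0.197. Alternatives covered normalization, filters, covariates, weights, subsets of arrays and single arrays. Same-numbered arrays of 14 and 21 days had correlated deviations (8 of 8 above 0.1, from 0.12 to 0.55), and no label pairs them. Those deviations still held the difference between number ranges, which same-numbered arrays share, so they cannot show pairing. A replicate block there, added on seeing the data, left 0 members called (limma, 1 at an unadjusted p under 0.05, 0 without the block). For 7 against 14 days and for 7 against 21 days, 5 of 8 such correlations lay above 0.1 each, and with controls 6 of 24.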

Additional observations from a re-analysis of the deposited data

Results flagged for a closer look

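In 21 groups of 8 arrays (7 genes at 3 HFD times), an array was set apart where its gap to the nearest other exceeded 0.526 of the group's range; chance sets an array apart in about 1 of 20 groups. Rgs16 on array 3 of 14 days, at 6.05, lay below the other 7 (gap of 0.531 of the range). Khk on array 6 of 14 days, at 10.85, lay above the other 7 (gap of 0.529 of the range). Both gaps were just past the critical value.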

How the results depend on the processing

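Over 97 gene results and 1413 alternatives, 1293 kept their side of the threshold (70 of these, without a call, changed sign), 88 calls were lost, 30 were gained and 2 called values reversed; for those that changed, the cause was not tested. Both reversals came with the acinar mean and Malat1 as covariates: the number ranges then differed by -0.289 for Rgs16 and -0.389 for Mlxipl, and 0 of 7 genes were called between them in place of 3. Counts of members here include Rgs16 and Pklr, as descriptions. Members called fell to 1 at 21 days with HFD arrays 1 to 4 only and to 2 at 7 days with arrays 5 to 8 only. Without arrays of high acinar mean, a step added after the data were seen, 2, 0 and 1 were called at the 3 times and 1 between number ranges. Leaving out 1 array gave 3 to 4 at 7 days, 2 at 14 days, 2 to 3 at 21 days, 3 between number ranges and 0 among HFD times. Of same-numbered arrays, 6 of 24 pairs with controls and 18 of 24 between HFD times correlated above 0.1 (from -0.41 to 0.55 in all); between HFD times the own number was best in 10 of 48. Only 14 and 21 days had all 8 pairs above 0.1. With the replicate block 3, 2 and 2 members lay past the threshold at the 3 times and 0 among HFD times, and Tpi1 at 21 days (-0.29) lost its call. Tpi1 at 21 days lost its call in 10 of 15 alternatives, from -0.305 to -0.226. Txnip gained calls at 7 and 14 days with both covariates (adjusted p = 0.0447 and 0.0294), and Khk at 21 days with quantile normalization (adjusted p = 0.0124). ChREBP list genes called at 7 days ranged from 1 to 11, with 5 under the replicate block. Quantile normalization moved calls at 7 days from 208 higher and 43 lower to 170 and 56.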
